A study of Rattus norvegicus with 111 samples.

Results

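Cyp1a1 (ENSRNOG00000019500) and Cyp1a2 (ENSRNOG00000016173) encode the 2 liver cytochrome P450 enzymes that are the classic transcriptional targets of the aryl hydrocarbon receptor. They were chosen by gene identifier and are 2 of the 20311 genes listed in each deposited table. Both were followed through every dose of 2 perfluoroalkyl ether acids, PFO5DoA and PFO4DA, in maternal and fetal rat liver. In maternal liver Cyp1a2 fell with the dose of PFO5DoA, to 6.74% of the control mean at the highest dose analysed, while no dose of PFO4DA passed the test. In fetal liver Cyp1a2 was read at a few CPM (counts scaled to a library total of 1000000) in every group. Cyp1a1 was read at under 5 CPM in every library of both livers, and none of its dose groups differed from controls past the threshold.

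The aryl hydrocarbon receptor is a ligand-activated transcription factor that pairs with ARNT in the nucleus and binds DNA elements with the core GCGTG, through which it raises the transcription of CYP1A genes. Cyp1a1 is close to silent in uninduced liver and is the usual marker of receptor activation by dioxins and polycyclic aromatic hydrocarbons. Cyp1a2 has a constitutive level in adult hepatocytes, highest near the central vein, and oxidises caffeine, aromatic amines and oestrogens. It is normally little expressed before birth.

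Time-mated Sprague-Dawley dams of about 11 to 12 weeks of age were dosed orally from gestational day 18 to 22 with 1 of the chemicals, and livers were taken 2 to 4 hours after the last dose. The controls of each chemical received the vehicle, 0.5% Tween-80. As analysed, the PFO5DoA arm held 5 control dams, then 2 at 0.1, 3 at 0.3, 3 at 1, 4 at 3, 4 at 10 and 4 at 30 mg/kg/d. Control dam 2279 was left out, as described below. The PFO4DA arm held 6 control dams and 4 dams at each of 0.3, 1, 3, 10, 30 and 62.5 mg/kg/d. Every dam is a separate animal, and the labels do not say how many fetuses a fetal sample holds. Per the labels, dams at 30 mg/kg/d PFO5DoA ended about 17% lighter than controls, with apparent fetotoxicity in 1 dam, so a change at that dose cannot be told apart from these effects. The RNA was read with a probe-based whole-transcriptome assay (TempO-Seq), and the level of a gene in these tables is the count of its probes.

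The upstream sequence of Cyp1a2 is shown because the receptor, if bound there, would do so through the GCGTG core, and because it is the gene whose values changed. The RefSeq promoter table of build GRCr8 matched 1 of the 2 genes, Cyp1a2, and the 250 bases before its start on the minus strand of chromosome 8 (chr8:66978150-66978399) read 5′ to 3′ as follows, with a TATAAA box and a TGACCT hexamer in capitals.
Cyp1a2: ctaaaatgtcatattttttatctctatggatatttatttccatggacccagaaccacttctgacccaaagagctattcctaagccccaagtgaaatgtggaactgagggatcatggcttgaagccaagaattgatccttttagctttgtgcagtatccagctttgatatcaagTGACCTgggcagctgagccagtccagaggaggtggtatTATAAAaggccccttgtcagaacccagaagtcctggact
The TATAAA match, on the gene's own strand, opens 39 bases before the start. TGACCT, which opens 77 bases before it, is the reverse complement of AGGTCA, the hexamer that many nuclear receptors read. Neither match overlaps the other. GCGTG was searched on both strands of the 300-base window that also takes in the 50 bases after the start, and was found 0 times there. Of 33469 promoter windows of that length, 29.7% held GCGTG on either strand, 14.2% held TATAAA and 16.2% held AGGTCA. These matches describe letters, and more distant elements are outside this window. Between Cyp1a2 and Cyp1a1 the RefSeq annotation of that build lists 0 genes.

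The column names of the tables give the dam but not the liver. For each of 54 dams, the library with the higher correlation with the library of dam 2286, which the labels give as a lone maternal sample, was taken as maternal and the other as fetal. The correlation was Pearson's r of log2(CPM + 1). It was 0.943 to 0.988 for the maternal and 0.861 to 0.923 for the fetal library, and within a dam they differed by at least 0.0524. Leaving out both CYP1A genes, or using rank correlations, changed the choice in 0 dams. The difference in level between the livers is therefore a description and carries no test. Control dam 2279 was left out of PFO5DoA because 1 of its libraries held 45505 counts. Its other library, which the same rule took as maternal, held 10318246 counts and was left out with it. That library read 0.775 CPM of Cyp1a1 and 1090 CPM of Cyp1a2, the latter below the 1112 CPM of the lowest control used. The 109 libraries used (55 maternal, 54 fetal) held 7132999 to 15254939 counts. Markers of liver cell types could not be checked by name, since 0 of the identifiers matched the reference names used here.

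Cyp1a2 was a high-count gene in the maternal liver of control dams. The 5 PFO5DoA control dams read 1112, 1137, 1371, 1592 and 2372 CPM, a mean of 1517 ± 516 (SD, n = 5). The 2 dams at 0.1 mg/kg/d read 1132 and 1801 CPM, inside the control range. At 0.3 mg/kg/d the 3 dams read 850.0, 986 and 1397 CPM. Of these, 2 were below every control, and their mean was 1078 ± 285 (SD, n = 3). At 1 mg/kg/d the dams read 1067, 1212 and 1256 CPM (1179 ± 98.9, SD, n = 3), and 1 of 3 was below every control. From 3 mg/kg/d upwards the dosed and control dams no longer overlapped. How many of all genes separated in this way was not counted, here or in other contrasts. The 4 dams at 3 mg/kg/d read 434, 523, 644 and 899 CPM, or 41.2% of the control mean (625 ± 202, SD, n = 4). At 10 mg/kg/d they read 278, 291, 308 and 359 CPM, or 20.4% of it (309 ± 35.6, SD, n = 4). At 30 mg/kg/d they read 29.8, 51.6, 59.4 and 268 CPM, a mean of 102 ± 111 (SD, n = 4). The highest of these was dam 2286. The other 3 averaged 46.9 ± 15.4 CPM (SD, n = 3), which was 3.09% of the control mean. In this bulk tissue, fewer cells with the transcript and less transcript per cell cannot be told apart.

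**Figure D1:**
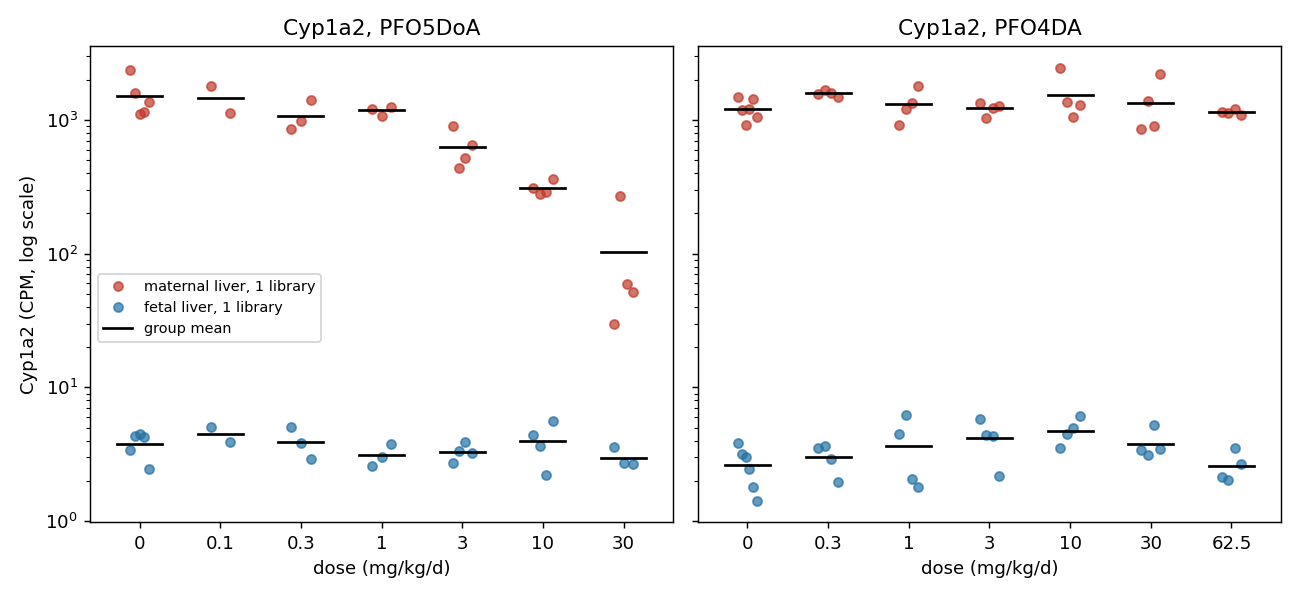
Cyp1a2 in CPM (log axis) by daily dose of PFO5DoA (left) and PFO4DA (right), with 1 point per library, maternal liver in red, fetal liver in blue, and black bars for group means. Maternal values step down from 3 mg/kg/d PFO5DoA to between 29.8 and 268 CPM at 30 mg/kg/d, whereas all maternal PFO4DA libraries lie between 849 and 2462 CPM and all fetal libraries between 1.42 and 6.20 CPM.

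Each dose was tested against the controls of its chemical in the fit across all genes with edgeR's quasi-likelihood test, and a gene was called at a Benjamini-Hochberg adjusted p under 0.05. In maternal liver, Cyp1a2 was called at 2 of the 5 PFO5DoA doses. At 10 mg/kg/d it fell by 2.44 on the log2 scale (SE 0.45, edgeR adjusted p = 0.000969), where 14% of the 10615 genes tested were called. At 30 mg/kg/d it fell by 4.07 (SE 0.49, edgeR adjusted p = 2.11e-06), where 39.8% of genes were called and 18 genes had a lower fold change. All 4 dams of each of these groups were below all 5 controls. Leaving out dam 2286 moved the fall at 30 mg/kg/d from 4.07 to a log2 change of -5.26.

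The lower doses did not pass. For the 3 mg/kg/d group Cyp1a2 had a log2 fold change of -1.30 (SE 0.43, edgeR adjusted p = 0.118), although 4 of 4 dams were below all controls, and 2.65% of genes were called. DESeq2 called it (adjusted p = 0.0199), as did edgeR with that dose and the controls alone (adjusted p = 0.0115) and edgeR without dam 2286 (adjusted p = 0.000416). The log2 fold change was -0.14 at 1 mg/kg/d, where 0.452% of genes were called, and -0.46 at 0.3 mg/kg/d. In the latter contrast edgeR called 0% of genes, with 562 at an unadjusted p under 0.05 and 4 called by DESeq2. Fold changes use library totals scaled by TMM factors (0.787 to 1.37 in this arm and liver), which CPM does not. In CPM the mean at 1 mg/kg/d was 77.7% of the control mean.

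Over all maternal PFO5DoA libraries the Cyp1a2 slope was -0.81 log2 units per unit of log2(dose + 1) (SE 0.09, edgeR adjusted p = 7.28e-08). In that trend 42.2% of genes were called, and 15 genes had a lower slope. The dam identifiers of each chemical form 2 consecutive series, which the labels give no meaning, and doses are spread unevenly over them. In the lower-numbered series the differences in mean log2(CPM + 1) from that series' own controls were -1.37 at 3 and -2.46 at 10 mg/kg/d. In the higher-numbered series they were -1.10 at 3, -1.94 at 10 and -4.12 at 30 mg/kg/d. The fall was present in both series, with 30 mg/kg/d only in the second of them.

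No PFO4DA dose passed the test for maternal Cyp1a2. The 6 control dams read from 915 to 1482 CPM with a median of 1204 (mean 1213 ± 218, SD, n = 6). At 0.3 mg/kg/d the 4 dams read 1495, 1572, 1599 and 1660 CPM, all above the highest control. At 1 mg/kg/d they read 910.4, 1203, 1347 and 1779 CPM. At 3 mg/kg/d they read 1041, 1221, 1281 and 1346 CPM. The group at 1 mg/kg/d straddled the controls, and that at 3 mg/kg/d lay inside their range. At 10 mg/kg/d they read 1055, 1282, 1373 and 2462 CPM, of which 1 was above every control. At 30 mg/kg/d they read 849, 898, 1378 and 2186 CPM, so that the lowest and the second highest PFO4DA values were in a single group. At 62.5 mg/kg/d they read 1085, 1133, 1155 and 1212 CPM, all inside the control range.

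Of the 6 PFO4DA doses 0 had an unadjusted edgeR p under 0.05 for maternal Cyp1a2, and DESeq2 called 0. For the 0.3 mg/kg/d group, whose dams did not overlap the controls, an exact permutation test of log2(CPM + 1), two-sided, gave p = 0.00952, the smallest that 4 against 6 dams allow, and 0.168 when adjusted over 44 comparisons. At that floor a fully separated group cannot pass the adjustment by itself. The edgeR log2 fold changes of maternal Cyp1a2 ran from -0.20 at 62.5 mg/kg/d to 0.37 at 0.3 mg/kg/d. The 95% interval at 62.5 mg/kg/d was -0.59 to 0.20. Over all genes the called share was 0% at 0.3, 1 and 3 mg/kg/d, 0.00974% at 10, 0.633% at 30 and 2.46% at 62.5 mg/kg/d. At 0.3, 1 and 3 mg/kg/d 269, 221 and 285 genes had an unadjusted p under 0.05, and DESeq2 called 4, 1 and 0. The Cyp1a2 slope on PFO4DA dose was -0.028 (SE 0.028, edgeR adjusted p = 0.792) in a trend that called 2.8% of genes.

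The chemicals were compared at the 3 doses shared from 3 mg/kg/d upwards, in each liver and for each gene, which makes 12 contrasts, each against that chemical's own controls. For maternal Cyp1a2 the PFO5DoA change was lower than the PFO4DA change by a log2 difference of -4.17 at 30 mg/kg/d (95% interval -5.08 to -3.26, edgeR adjusted p = 1.22e-08). The difference at the 10 mg/kg/d dose was -2.77 (95% interval -3.65 to -1.88, edgeR adjusted p = 6.17e-05). Both passed, in contrasts where 20% of genes were called at 30 and 8.55% at 10 mg/kg/d. The difference at the 3 mg/kg/d dose was -1.27 (95% interval -2.14 to -0.39, edgeR adjusted p = 0.250), with 0.804% of genes called. It passed without dam 2286 (edgeR adjusted p = 0.0160) and with each dose and its controls alone (edgeR adjusted p = 0.0351).

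**Figure D2:**
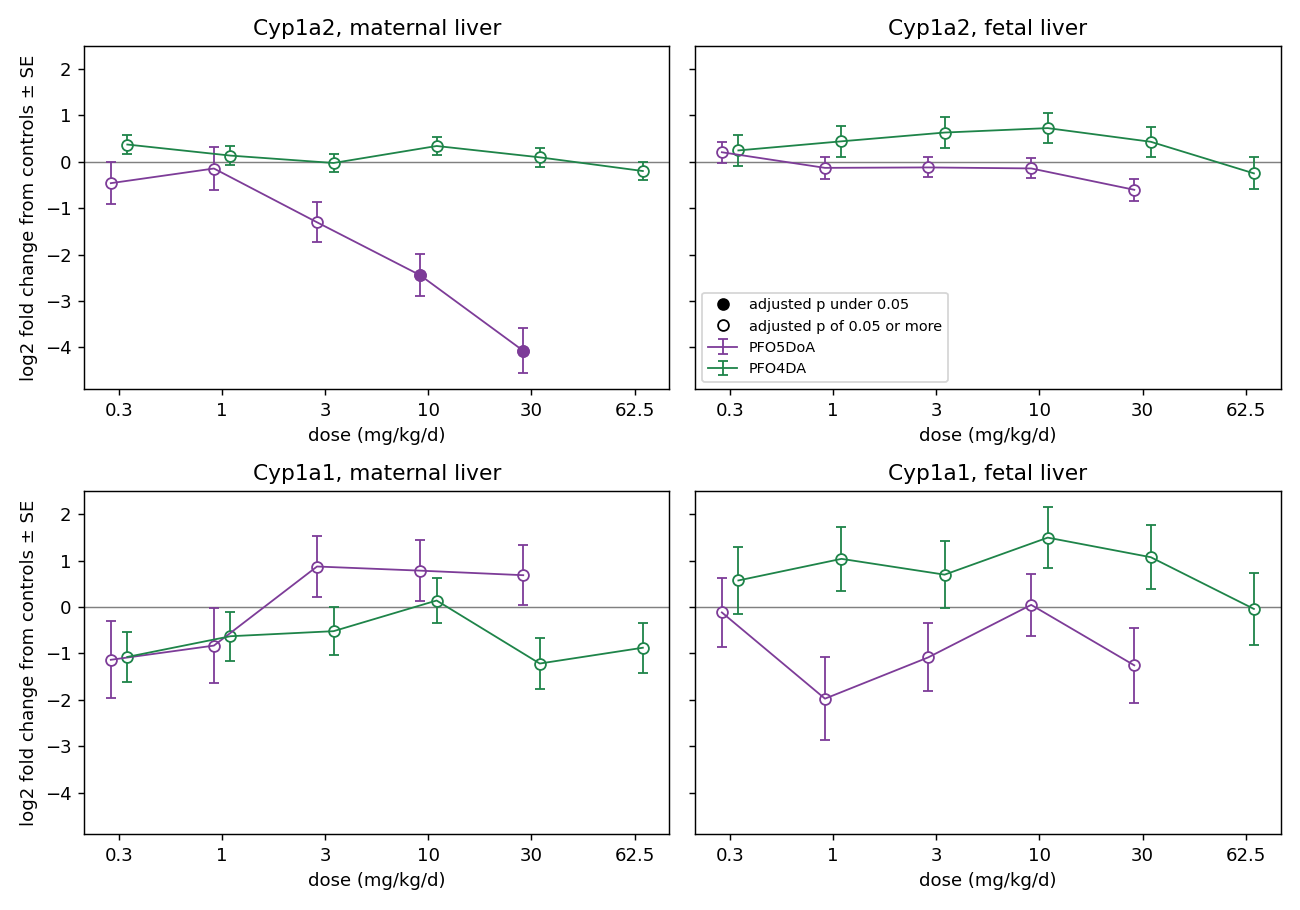
Log2 fold change from controls (edgeR, bars are 1 SE) of Cyp1a2 (top) and Cyp1a1 (bottom) in maternal (left) and fetal (right) liver by dose of PFO5DoA (purple) and PFO4DA (green). Filled points have an adjusted p under 0.05, and the only filled points are maternal Cyp1a2 at 10 and 30 mg/kg/d PFO5DoA.

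Fetal Cyp1a2 ran from 1.42 to 6.20 CPM over the 54 fetal libraries, on 14 to 58 counts each. The PFO5DoA control fetuses read 3.78 ± 0.85 CPM (SD, n = 5). The dosed groups of that arm with 3 or more dams had means from 2.98 ± 0.51 at 30 mg/kg/d (n = 3) to 3.98 ± 1.44 at 10 mg/kg/d (n = 4). Every one of these groups overlapped the controls. None passed with edgeR or DESeq2, and 1 dose had an unadjusted p under 0.05. That dose was 30 mg/kg/d, where 4581 of 11509 genes had an unadjusted p under 0.05. The Cyp1a2 log2 fold change there was -0.60 (SE 0.24, edgeR adjusted p = 0.0642). It passed without control dam 2280 (edgeR adjusted p = 0.0303). In CPM, without the TMM scaling (factors 0.844 to 1.35 in this arm and liver), the mean at 30 mg/kg/d was 78.9% of the control mean. The difference in mean log2(CPM + 1) was -0.25. The shares of genes called in fetal liver at 0.3, 1, 3, 10 and 30 mg/kg/d were 0.113%, 2.4%, 7.08%, 14.7% and 29.9%.

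The fetal Cyp1a2 slope on PFO5DoA dose was -0.11 (SE 0.04, edgeR adjusted p = 0.0353), in a trend that called 36% of genes. This call was lost with the identifier series as a covariate (slope -0.078, edgeR adjusted p = 0.198), without the filter on low counts, with dose ranks, and without any 1 of dams 2263, 2265, 2268, 2273, 2274, 2283, 2285, 2287 or 2288. In the higher-numbered series the mean at 30 mg/kg/d was 2.98 CPM against 3.36 CPM in its 2 controls.

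With PFO4DA the fetal Cyp1a2 means were 2.62 ± 0.91 CPM in controls (SD, n = 6), 4.76 ± 1.07 at 10 mg/kg/d (n = 4) and 2.58 ± 0.68 at 62.5 mg/kg/d (n = 4). Of the 4 dams at 10 mg/kg/d 3 were above every control, and the log2 fold change there was 0.73 (SE 0.32, edgeR adjusted p = 0.262). None of the 6 doses passed with edgeR or DESeq2, and 1, 10 mg/kg/d, had an unadjusted p under 0.05, where 1787 of 11172 genes did. The shares of genes called at 0.3, 1, 3, 10, 30 and 62.5 mg/kg/d were 0%, 0%, 0.304%, 2.64%, 6.44% and 10.6%. At 0.3 and 1 mg/kg/d 1125 and 876 genes had an unadjusted p under 0.05, and DESeq2 called 0 and 5. The slope was -0.0016 (SE 0.05, edgeR adjusted p = 0.991) in a trend that called 18.9% of genes. Control values differed between the identifier series, at a mean of 3.35 CPM in the lower-numbered and 1.90 CPM in the higher-numbered dams, and 62.5 mg/kg/d occurs only in the latter. Between chemicals, the fetal Cyp1a2 differences were -0.75, -0.87 and -1.04 at 3, 10 and 30 mg/kg/d. None passed (edgeR adjusted p = 0.478, 0.263 and 0.104), where 1.56%, 4.07% and 13.6% of genes were called. The 95% interval at 30 mg/kg/d was -1.89 to -0.19.

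Set within each dam, Cyp1a2 was higher in the maternal than in the fetal library in 54 of 54 dams. The ratio had a median of 332 and ran from 8.33 to 985. Among PFO5DoA dams it was 250 to 700.3 in the 5 controls (median 368), 63.7 to 132 at 10 mg/kg/d and 8.33 to 21.9 at 30 mg/kg/d. Among PFO4DA dams at 62.5 mg/kg/d it was 345 to 555, inside the 305 to 789 of their controls. The maternal level thus came nearer to the fetal one with PFO5DoA dose while still above it in all 3 dams with both livers at 30 mg/kg/d.

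**Figure D3:**
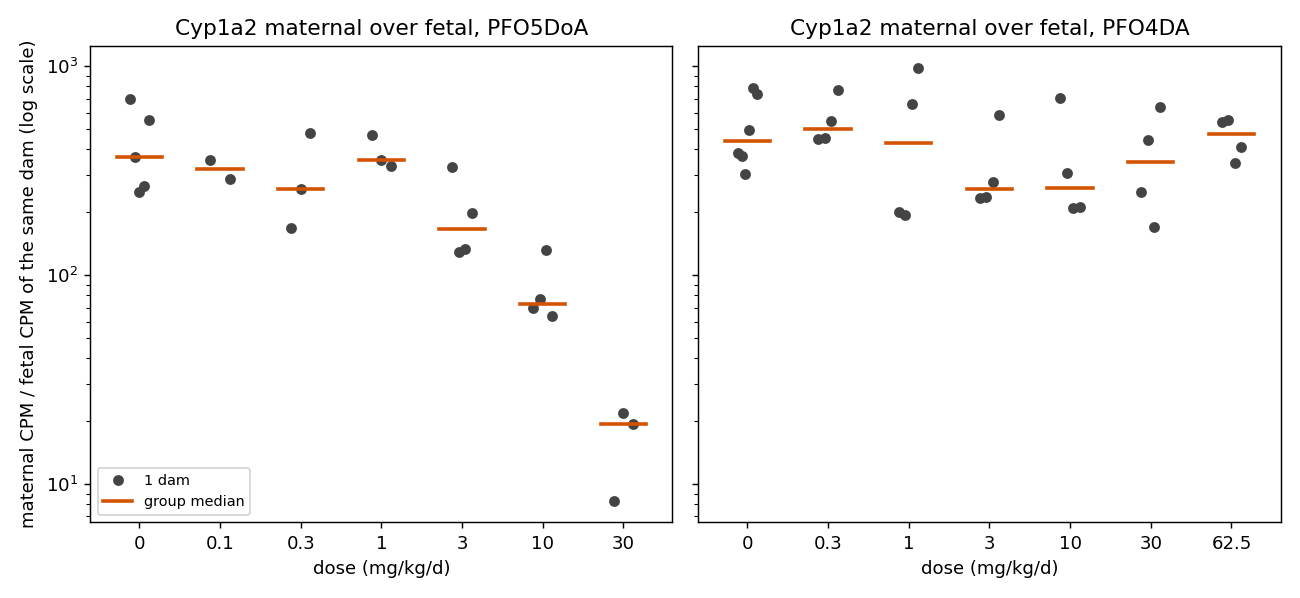
Ratio of maternal to fetal Cyp1a2 CPM within a dam (log axis) by dose of PFO5DoA (left) and PFO4DA (right), with 1 point per dam and orange bars for group medians. The ratio at 30 mg/kg/d PFO5DoA lies between 8.33 and 21.9, below every other dam, and the PFO4DA ratios stay between 170.3 and 985.

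The slopes of the livers on dose were compared in a fit with the dam as a block. For Cyp1a2 and PFO5DoA the maternal slope was lower than the fetal slope by a log2 difference of -0.84 (SE 0.08, edgeR adjusted p = 1.79e-08), in a contrast that called 20% of genes. For PFO4DA the difference was -0.033 (SE 0.05, edgeR adjusted p = 0.823), in a contrast that called 5.54% of genes.

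Cyp1a1 was read on 0 to 31 counts in maternal and 0 to 46 counts in fetal libraries. The count was 0 in 2 of the 109 libraries, which allows up to 0.327 CPM in the maternal library of dam 2312 (0.3 mg/kg/d PFO4DA) and 0.351 CPM in the fetal library of dam 2304 (10 mg/kg/d PFO4DA). These limits cover counting error only. Cyp1a1 passed the filter on low counts in all 4 fits of a chemical and liver. With each dose and its controls fitted alone, it gave no value in maternal liver at 0.3, 1, 3 and 10 mg/kg/d PFO5DoA. In fetal liver that setting gave no value for Cyp1a1 at any PFO4DA dose. At those doses its test thus depended on the libraries of other doses in the fit. It was higher in the maternal library in 32 of 54 dams, so neither liver stood above the other throughout.

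In maternal liver of the PFO5DoA arm the 5 controls read 0.229, 0.403, 0.486, 0.654 and 2.97 CPM for Cyp1a1 (0.949 ± 1.14, SD, n = 5). At 3 mg/kg/d the 4 dams read 0.669, 0.854, 1.88 and 3.50 CPM. They read 0.373, 0.453, 2.50 and 3.91 CPM at 10 mg/kg/d. The 4 dams of the 30 mg/kg/d group read 0.905, 1.14, 1.75 and 3.21 CPM. Each of these 3 groups overlapped the controls and had 1 dam above the highest control. The groups at 0.3 and 1 mg/kg/d read from 0.250 to 0.621 CPM. The log2 fold changes were -1.14, -0.83, 0.87, 0.78 and 0.69 at 0.3, 1, 3, 10 and 30 mg/kg/d, with SEs of 0.65 to 0.83. None passed with edgeR (lowest adjusted p = 0.420), and 0 of these doses had an unadjusted p under 0.05. DESeq2 called 0 and gave no adjusted p at 3 of the 5 doses, 0.3, 1 and 3 mg/kg/d. The slope was 0.25 (SE 0.12, edgeR adjusted p = 0.0986).

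The identifier series moved with these values. The 15 maternal PFO5DoA libraries of the lower-numbered series read 0.229 to 0.998 CPM for Cyp1a1 (median 0.453), and the 10 of the higher-numbered series 0.654 to 3.91 CPM (median 2.19). Within the higher-numbered series the 4 dams at 30 mg/kg/d averaged 1.75 CPM against 1.81 CPM in its 2 controls. With the series as a covariate the log2 fold change at 30 mg/kg/d was -0.27 (edgeR adjusted p = 0.702) and the slope -0.030 (edgeR adjusted p = 0.844). Without control dam 2278, which holds the 2.97 CPM, they were 1.66 (edgeR adjusted p = 0.0387) and 0.38 (edgeR adjusted p = 0.00976). At 30 mg/kg/d and in the slope, the sign of maternal Cyp1a1 on PFO5DoA thus changed with the series covariate, and the call without dam 2278. Dam 2278 is also 1 of the 2 controls of the higher-numbered series, so these checks are not separate. The covariate also turned the sign at 0.3 and 1 mg/kg/d. It kept the sign at 3 and 10 mg/kg/d, at 0.76 and 0.46 (edgeR adjusted p = 0.410 and 0.525).

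Library totals moved with Cyp1a1 as well. The 5 maternal PFO5DoA libraries with the highest Cyp1a1, at 2.50 to 3.91 CPM on 18 to 31 counts, were the 5 with the lowest totals of that liver, 7132999 to 8406315. The other 20 libraries held 8827656 to 15254939 counts in all and 3 to 20 counts of Cyp1a1. In the PFO4DA arm 0 of the 5 highest maternal libraries were among the 5 lowest totals. The part of library total or series in the Cyp1a1 values was not tested further.

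**Figure D4:**
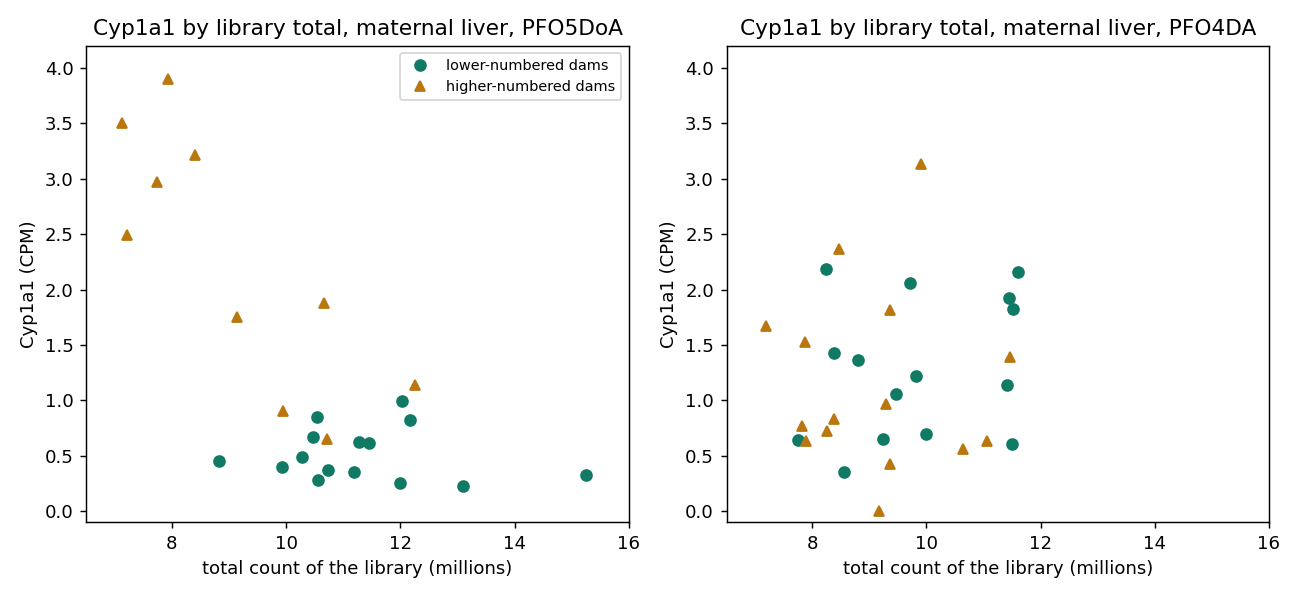
Cyp1a1 in CPM against the total count of the library (axis in units of 1000000 counts), maternal liver, PFO5DoA arm (left) and PFO4DA arm (right), with circles for the lower-numbered and triangles for the higher-numbered dams. On the left the 5 libraries of 2.50 CPM or more sit at the lowest totals and all belong to higher-numbered dams, and on the right the highest values are spread over the totals.

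With PFO4DA, maternal Cyp1a1 was read at 0.701 to 3.13 CPM in the 6 controls (median 1.62, mean 1.71 ± 0.99, SD). The lowest group mean was 0.705 ± 0.34 CPM at 30 mg/kg/d (SD, n = 4), where 2 of 4 dams were below every control. The highest was 1.82 ± 0.32 CPM at 10 mg/kg/d (SD, n = 4), inside the control range. At the lowest dose, 0.3 mg/kg/d, the mean was 0.784 ± 0.89 CPM (SD, n = 4), and 3 of 4 dams were below every control. No dosed dam was above the highest control. The log2 fold changes ran from -1.22 at 30 mg/kg/d (SE 0.55, edgeR adjusted p = 0.679) to 0.14 at 10 mg/kg/d. None passed with edgeR or DESeq2, the latter giving no adjusted p at 1 of the 6 doses, 10 mg/kg/d. At 1 of the 6 doses, 30 mg/kg/d, the unadjusted p was under 0.05, where 724 of 10263 genes had one. The slope was -0.080 (SE 0.08, edgeR adjusted p = 0.779). At 62.5 mg/kg/d the 95% interval of the log2 fold change was -1.94 to 0.19.

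**Figure D5:**
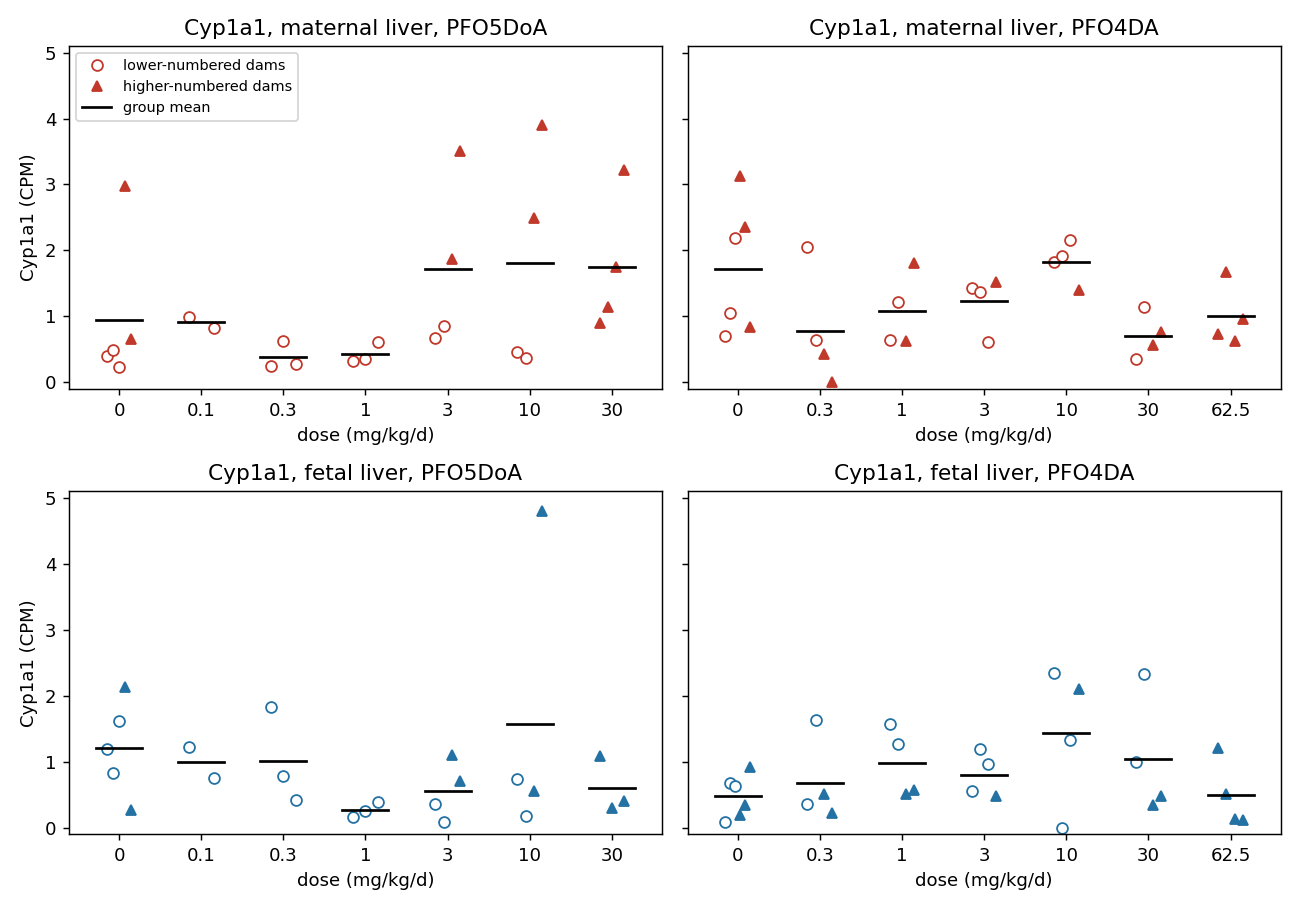
Cyp1a1 in CPM by dose of PFO5DoA (left) and PFO4DA (right) in maternal (top) and fetal (bottom) liver, with 1 point per library, open circles for lower-numbered and filled triangles for higher-numbered dams, and black bars for group means. In the maternal PFO5DoA panel every value of 1 CPM or more belongs to a higher-numbered dam, and the single highest fetal value, 4.80 CPM, is at 10 mg/kg/d PFO5DoA.

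Fetal Cyp1a1 in the PFO5DoA arm averaged 1.21 ± 0.71 CPM in controls (SD, n = 5). Its lowest group was 1 mg/kg/d, at 0.161, 0.250 and 0.394 CPM, where 2 of 3 dams were below every control. The dams at 10 mg/kg/d read 0.169, 0.551, 0.739 and 4.80 CPM, and the last of them, dam 2284, was the highest Cyp1a1 value of all libraries. The same dam also held the highest maternal value, 3.91 CPM. At 30 mg/kg/d the 3 dams read 0.291, 0.410 and 1.09 CPM. The log2 fold changes ran from -1.97 at 1 mg/kg/d (SE 0.89, edgeR adjusted p = 0.242) to 0.047 at 10 mg/kg/d. With PFO4DA the fetal controls averaged 0.476 ± 0.32 CPM (SD, n = 6) and the dose means ran from 0.491 at 62.5 to 1.44 CPM at 10 mg/kg/d, where 3 of 4 dams were above every control. The log2 fold change at 10 mg/kg/d was 1.5 (SE 0.66, edgeR adjusted p = 0.261). Of the 11 fetal dose contrasts of Cyp1a1 in both arms none passed with edgeR or DESeq2, and 2 had an unadjusted p under 0.05. These were 1 mg/kg/d PFO5DoA, where 2126 of 11509 genes had one, and 10 mg/kg/d PFO4DA, where 1787 of 11172 did. The slopes were -0.097 for PFO5DoA and 0.053 for PFO4DA (edgeR adjusted p = 0.631 and 0.773).

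Between chemicals, the Cyp1a1 differences at 30 mg/kg/d pointed up in maternal liver, at 1.92 (95% interval 0.21 to 3.63, edgeR adjusted p = 0.114), and down in fetal liver, at -2.34 (95% interval -4.49 to -0.20, edgeR adjusted p = 0.159). None of the 6 contrasts of Cyp1a1 passed with edgeR or DESeq2, the latter giving no adjusted p for the maternal contrast at 3 mg/kg/d. The 2 at 30 mg/kg/d had an unadjusted p under 0.05, where 3594 of 10951 genes (maternal) and 3091 of 11732 (fetal) did. Without control dam 2278 the maternal difference was 2.89 (edgeR adjusted p = 0.0123), and with the identifier series as a covariate it was 0.98 (edgeR adjusted p = 0.416). The maternal slope on PFO5DoA dose was higher than the fetal slope by 0.46 (SE 0.16, edgeR adjusted p = 0.0408). That call was lost without any 1 of dams 2263, 2264, 2265, 2268, 2269, 2270, 2277, 2283, 2287 or 2288. It was also lost with a separate maternal minus fetal shift for each identifier series, a fit chosen after seeing the data, where the difference was 0.29 (edgeR adjusted p = 0.276). That fit kept the Cyp1a2 difference, at -0.81 (edgeR adjusted p = 4.22e-07). For PFO4DA the Cyp1a1 difference in slope was -0.087 (SE 0.13, edgeR adjusted p = 0.808).

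Whether the genes moved together between dams of a group was examined with deviations from the dose group mean of log2(CPM + 1), in 8 relations. Deviations sum to 0 within a dose group, and the permutations shuffled them over all dams of an arm. Their p-values thus treat as separate some values that are not. In fetal liver of the PFO5DoA arm, dams with more Cyp1a1 also had more Cyp1a2. Pearson's r was 0.73 and Spearman's rho 0.69 over 22 dams (permutation p = 0.00012 and 0.00058, adjusted 0.00096 and 0.00464). Without the 2 dams farthest from the median Cyp1a1, r was 0.73. With deviations taken within each identifier series, r was 0.67 over the 13 lower-numbered and 0.99 over the 9 higher-numbered dams. Where a dose and series hold 2 dams, their deviations mirror each other, so these r rest on fewer free values than dams. In the higher-numbered series each dose held 2 or 3 fetal libraries. The pair at 10 mg/kg/d, dams 2283 and 2284, lay far apart, at 0.551 and 4.80 CPM of Cyp1a1 and 2.21 and 5.64 CPM of Cyp1a2. In fetal liver of the PFO4DA arm r was 0.055 over 30 dams (rho 0.038, permutation p = 0.774 and 0.842, adjusted 0.819 and 0.91). Within the series it was -0.46 and -0.57, where a dam alone in its dose and series has a deviation of 0. The relation of the PFO5DoA arm did not hold in the PFO4DA arm, and the difference between them was not tested. How many other genes followed either gene as closely in these fetal libraries was not counted. The relation is therefore not shown to be particular to this pair.

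In maternal liver r of Cyp1a1 with Cyp1a2 was -0.084 over 23 PFO5DoA dams and 0.16 over 30 PFO4DA dams, with rho of -0.026 and 0.20 (permutation p of r = 0.703 and 0.386, adjusted 0.819 and 0.618; of rho 0.91 and 0.295). Within the series r was 0.056 and -0.097 for PFO5DoA and -0.099 and 0.37 for PFO4DA. Maternal and fetal Cyp1a1 of a dam had an r of 0.50 in the PFO5DoA arm (rho 0.38, permutation p = 0.0166 and 0.0795, adjusted 0.0665 and 0.318). That r rested on the 2 farthest dams, without which it was 0.18, and within the series it was -0.23 and 0.38. For the other 3 relations between maternal and fetal values, maternal against fetal Cyp1a1 with PFO4DA and Cyp1a2 with either chemical, r lay between -0.30 and -0.044 and rho between -0.27 and 0.035, with adjusted permutation p-values of 0.268 to 0.819 for r and 0.406 to 0.91 for rho. Within the lower- and the higher-numbered series r was -0.64 and -0.12 for Cyp1a2 with PFO5DoA, -0.10 and -0.34 for Cyp1a2 with PFO4DA, and -0.025 and -0.26 for Cyp1a1 with PFO4DA.

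The genes whose maternal pattern was most like Cyp1a2 could be given by identifier only. Over the 25 maternal PFO5DoA libraries and 6533 genes with a mean of at least 5 CPM, the 5 closest had Pearson's r of 0.906 to 0.925 with Cyp1a2, led by ENSRNOG00000005437 and ENSRNOG00000036984. Over the 30 maternal PFO4DA libraries the 5 closest reached r of 0.676 to 0.718. For Cyp1a1 the 5 closest genes had r of 0.857 to 0.885 in the PFO5DoA arm and 0.499 to 0.534 in the PFO4DA arm. These are descriptions over libraries that fall into dose groups and identifier series.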

How the data were processed

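The members, gene lists and tests were chosen with earlier results of these data known. Gene-level estimated counts were deposited by the authors, 1 table per chemical with 1 column per library, not normalized. In them, 12.2% (PFO5DoA) and 11.8% (PFO4DA) of values had decimals. Per the labels, the panel holds 22253 probes for 20924 genes. Per the submitters' processing notes the tools included STAR 2.7.8a, Partek and DESeq2 on the build mRatBN7.2, with no role given for each.

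Counts were rounded. CPM is the count scaled to a library total of 1000000. Each chemical and liver was fitted with edgeR 4.0.16 in R 4.3.3 (TMM, filterByExpr by dose, robust glmQLFit, glmQLFTest), all doses with 3 or more dams together. The trend used log2(dose + 1). Chemicals were compared by the difference of their dose contrasts, with both tables fitted together, and livers with the dam as a block. Intervals are 1.96 SE. Scripts were tested on simulated data. DESeq2 was version 1.42.0. All columns were mapped to dams. None of the 16 gene lists, cell type markers among them, could be looked up, as 0 identifiers matched a name, so no list result is given. The rule for names was both genes always and the 5 most alike genes. Permutation tests of correlations drew 100000 resamples, and exact tests enumerated all.

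Alternatives were another tool, scaling, filter, dose scale or covariate, a replicate block, each dose alone, the 0.1 mg/kg/d dams kept, and each dam left out.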

Additional observations from a re-analysis of the deposited data

Results flagged for a closer look

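In 4 of 42 sets, each 1 gene in 1 group of 4 to 6 dams, 1 library lay far from the others of its group. The cut-off gives about 1 in 20 for normally distributed values, which raw CPM on low counts need not follow. The rate over all genes was not counted, so no excess over chance can be read from this. Cyp1a2 of dam 2286 at 30 mg/kg/d PFO5DoA was 268 CPM, against 29.8 to 59.4 CPM in the other 3 maternal libraries. Cyp1a1 of control dam 2278 of PFO5DoA was 2.97 CPM in maternal liver, against 0.229 to 0.654 CPM in the other 4. Fetal Cyp1a1 of dam 2284 at 10 mg/kg/d PFO5DoA was 4.80 CPM, against 0.169 to 0.739 CPM. Fetal Cyp1a2 of dam 2317 at 30 mg/kg/d PFO4DA was 5.27 CPM, against 3.10 to 3.43 CPM.

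For each gene 6 contrasts between chemicals and 2 between livers were tested. In 4 contrasts an effect differed between chemicals or livers by the edgeR test of the difference. Maternal Cyp1a2 differed between PFO5DoA and PFO4DA by -2.77 at 10 and -4.17 at 30 mg/kg/d on the log2 scale, where 8.55% and 20% of genes were called. The maternal minus fetal difference in slope on PFO5DoA dose was -0.84 for Cyp1a2 and 0.46 for Cyp1a1, where 20% of genes were called. The Cyp1a1 difference was 0.29 and no longer passed (edgeR adjusted p = 0.276) with a separate maternal minus fetal shift for each identifier series.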

How the results depend on the processing

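The calls of maternal Cyp1a2 at 10 and 30 mg/kg/d PFO5DoA, its slope, and its differences between chemicals and livers were kept under every alternative run except an exact permutation test of log2(CPM + 1), which was chosen after seeing the data. It gave -4.35 at 30 and -2.24 at 10 mg/kg/d with an adjusted p of 0.168 over 44 comparisons, from an exact p of 0.0159, the smallest that 4 against 5 dams allow. At that floor a fully separated group cannot pass the adjustment by itself, so this test cannot decide the calls. With the replicate number as a replicate block, which same-numbered samples did not support (median r of deviations -0.024 to 0.01), fetal Cyp1a2 at 30 mg/kg/d PFO5DoA passed at -0.71, and maternal Cyp1a2 there was -4.26. The fetal Cyp1a2 slope on PFO5DoA lost its call at -0.11 without the filter, -0.078 with the series covariate and -0.098 with dose ranks. The Cyp1a1 difference between livers on PFO5DoA lost its call at 0.29 with a maternal minus fetal shift for each series, also chosen after seeing the data.

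Signs turned only where neither value passed. Cyp1a1 with the block or the series covariate became 0.023 and 0.39 (fetal 62.5 PFO4DA), 0.013 and 0.29 (fetal 0.3 PFO5DoA) and -0.60 and -0.33 (fetal 10 PFO5DoA). With the series covariate maternal PFO5DoA Cyp1a1 became 0.087 at 0.3, 0.39 at 1 and -0.27 at 30 mg/kg/d, with a slope of -0.030. Fetal PFO4DA Cyp1a2 became -0.054 at 0.3 with the block and 0.11 at 62.5 with the covariate, and its slope 0.0011 with DESeq2 or RLE scaling, 0.002 without the filter, 0.048 with the covariate and 0.021 with ranks. On log2(CPM + 1), fetal Cyp1a2 at 62.5 PFO4DA was 0.0062, maternal Cyp1a2 at 3 PFO4DA 0.024, fetal Cyp1a1 at 10 PFO5DoA -0.028 and fetal Cyp1a2 there 0.029.

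Leaving out 1 dam at a time gave, for Cyp1a1, -0.051 to 1.63 (chemicals, maternal, 10), 1.60 to 2.89 (chemicals, maternal, 30), -1.66 to -0.16, -1.18 to 0.14, 0.48 to 1.84, 0.071 to 1.76 and 0.36 to 1.66 (maternal 0.3, 1, 3, 10 and 30 PFO5DoA), -0.85 to 0.25 and -1.38 to 0.41 (fetal 0.3 and 10 PFO5DoA), 0.21 to 0.38 and -0.27 to -0.048 (maternal and fetal PFO5DoA slopes), 0.0026 to 0.096 (fetal PFO4DA slope), 0.39 to 0.58 (livers, PFO5DoA), -0.32 to 0.85 and -0.92 to 0.29 (fetal 0.3 and 62.5 PFO4DA) and -0.027 to 0.42 (maternal 10 PFO4DA). For Cyp1a2 it gave -0.24 to 0.0037 (maternal 1 PFO5DoA), -0.020 to 0.36, -0.24 to 0.017 and -0.74 to -0.48 (fetal 0.3, 10 and 30 PFO5DoA), -0.12 to -0.085 (fetal PFO5DoA slope), -0.016 to 0.29, -0.11 to 0.077 and -0.15 to 0.25 (maternal 1, 3 and 30 PFO4DA) and -0.016 to 0.024 (fetal PFO4DA slope). Counts over all genes moved by more than 1.5 times as follows. With each dose fitted alone, PFO5DoA counts went from 48 to 12, 281 to 136 and 1488 to 793 (maternal 1, 3 and 10) and from 13 to 7, 276 to 137, 815 to 486 and 1690 to 808 (fetal 0.3, 1, 3 and 10). PFO4DA counts went from 1 to 5 and 252 to 484 (maternal 10 and 62.5) and from 34 to 15, 295 to 155 and 719 to 455 (fetal 3, 10 and 30), and those between chemicals from 936 to 397 (maternal 10), 183 to 105 and 477 to 173 (fetal 3 and 10). With DESeq2, PFO5DoA counts became 4, 101 and 486 (maternal 0.3, 1 and 3, from 0, 48 and 281) and 21 and 542 (fetal 0.3 and 1). PFO4DA counts became 4, 1 and 20 (maternal 0.3, 1 and 10, from 0, 0 and 1) and 5, 60 and 453 (fetal 1, 3 and 10, the first from 0), and those between chemicals 143 (maternal 3, from 88). With the replicate block they became 23 (maternal 1 PFO5DoA), 8 and 168 (fetal 0.3 and 1 PFO5DoA), 37 (maternal 30 PFO4DA, from 65), 11 and 151 (fetal 3 and 10 PFO4DA) and 51 and 572 (chemicals, maternal 3 and 10). Without the filter they were 114 and 309 (chemicals, fetal 3 and 10), and with the series covariate 2 (maternal 10 PFO4DA). DESeq2 gave no adjusted p for 5 values of Cyp1a1. At 0 to 46 counts a library, depth limits what can be told of Cyp1a1. The cause of these changes was not tested.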
